A study of Mus musculus with 16 samples.

Results

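The mRNAs of the coreceptors CD4 and CD8 and of the CD3 chains were followed in thymocytes with and without Tox4. The genes were chosen by name, as *Cd4*, *Cd8a*, *Cd8b1*, *Cd3d*, *Cd3e*, *Cd3g* and *Cd247*, which are 7 of the 24984 genes in the count table of DP thymocytes and 7 of the 24974 in that of CD8 thymocytes. DP thymocytes carry both coreceptors, and CD8 thymocytes are the later stage that has kept CD8. RNA-seq covered DP cells of 3 control and 3 cKO samples and CD8 cells of 5 control and 5 cKO samples. Control mice had the genotype Tox4;F/F, that is, both *Tox4* alleles floxed and no Cre. The cKO mice are labelled Tox4;F/F;Lck+ for DP cells and Tox4;F/F;Lck-cre for CD8 cells, and in them a Cre gene under the proximal promoter of *Lck*, which acts in immature thymocytes before the DP stage, removes exons 4 to 6 of *Tox4*. The study worked with littermates of the same sex aged 6 to 8 weeks, and the labels give no strain, age or sex for a single sample. CD8 thymocytes were sorted as TCRβ+CD8+ cells, and in its flow cytometry the study defines CD8 single positive cells as TCRβ+CD4-CD8+. Total counts per sample were 16524506 to 18484568 in DP control and 14583336 to 25981683 in DP cKO samples. The totals were 9420085 to 13530783 in CD8 control samples and 8514135 to 11828492 in CD8 cKO samples. Since DP and CD8 samples come in separate tables, a difference between the cell types and one between the tables cannot be told apart.

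The T cell receptor binds peptides held by MHC molecules but cannot signal by itself, and the CD3 chains γ, δ, ε and ζ, the products of *Cd3g*, *Cd3d*, *Cd3e* and *Cd247*, carry the motifs that the kinase Lck phosphorylates. CD4 binds MHC class II and CD8, mostly a dimer of the α and β chains from *Cd8a* and *Cd8b1*, binds MHC class I, and both bring Lck to the receptor. A DP thymocyte that is positively selected on class I switches off *Cd4* through its silencer and factors of the Runx family and becomes a CD8 cell. The genes of the γ, δ and ε chains form a cluster on chromosome 9 (mm10), with *Cd3g* at 44969572 to 44980431 and *Cd3e* at 44998743 to 45009611 on the minus strand and *Cd3d* between them at 44981786 to 44987052 on the plus strand. The start sites of *Cd3g* and *Cd3d* face away from each other, with 1354 bases between the genes, and *Cd3d* ends 11690 bases from *Cd3e*. *Cd247* is on chromosome 1 (165788681 to 165871153, plus strand), where its last bases overlap *Pou2f1* on the other strand for 6000 bases. *Cd8b1* (chromosome 6, 71322788 to 71337492) and *Cd8a* (71373427 to 71379171) follow each other on the plus strand at a distance of 35934 bases, and *Cd4* is on the minus strand of the same chromosome (124864693 to 124888200).

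Promoter sequences of RefSeq (GRCm38.p6) were matched for 5 of the 7 genes, and the 150 bases before each start site are shown because genes of 1 cluster and of 1 receptor went in different directions between the cell types. Capitals mark TGNGGT or its reverse complement ACCNCA, a loose form of the core bound by Runx factors that allows any base at N. They also mark AGGAAG or its reverse complement CTTCCT, a core bound by Ets factors. Each line is written 5′ to 3′ on the strand of the gene.
Cd8a promoter (chr6:71373277-71373426, plus): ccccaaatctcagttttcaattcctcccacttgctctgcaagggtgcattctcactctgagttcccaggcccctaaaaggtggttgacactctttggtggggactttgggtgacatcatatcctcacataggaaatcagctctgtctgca
Cd3d promoter (chr9:44981636-44981785, plus): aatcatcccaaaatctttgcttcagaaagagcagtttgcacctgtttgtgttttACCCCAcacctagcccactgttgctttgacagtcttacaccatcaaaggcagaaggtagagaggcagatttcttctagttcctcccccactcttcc
Cd3e promoter (chr9:45009612-45009761, minus): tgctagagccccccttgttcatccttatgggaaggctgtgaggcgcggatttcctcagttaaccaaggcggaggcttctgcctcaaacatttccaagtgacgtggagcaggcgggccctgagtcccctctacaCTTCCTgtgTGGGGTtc
Cd3g promoter (chr9:44980432-44980581, minus): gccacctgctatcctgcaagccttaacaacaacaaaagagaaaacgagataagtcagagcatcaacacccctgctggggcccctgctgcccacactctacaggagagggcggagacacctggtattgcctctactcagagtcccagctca
Cd247 promoter (chr1:165788531-165788680, plus): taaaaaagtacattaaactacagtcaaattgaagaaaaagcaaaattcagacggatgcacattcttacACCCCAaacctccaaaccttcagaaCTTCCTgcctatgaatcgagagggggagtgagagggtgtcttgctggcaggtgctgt
TGNGGT was found once each upstream of *Cd3d*, *Cd3e* and *Cd247*, each time as TGGGGT or its reverse complement ACCCCA. Binding by Runx factors was not tested. The Ets core was found once each upstream of *Cd3e* and *Cd247*. Neither pattern was found in the windows of *Cd8a* and *Cd3g*. Of all 32851 windows of this length, 26.0% held TGNGGT and 19.7% the Ets core, so matches are common. The E-box CANNTG was in all 5 windows and in 47.7% of all windows. AGATAA, bound by Gata factors, was upstream of *Cd3g* alone among these 5 and in 5.65% of all windows.

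The targeted gene was looked at first to check the labels. *Tox4* counts, scaled to library size as CPM with edgeR's TMM factors, were 149, 165 and 175 CPM in DP control samples 1 to 3 and 128, 135 and 129 CPM in DP cKO samples. All 3 cKO samples were below all 3 control samples. In CD8 cells *Tox4* was at 199, 191, 204, 207 and 183 CPM in control samples 1 to 5 and at 173, 189, 178, 237 and 168 CPM in cKO samples, and the groups overlapped, with cKO sample 4 the highest of all. The log2 fold change was -0.32 (standard error 0.11) in DP cells and -0.06 (standard error 0.10) in CD8 cells, with adjusted p = 0.381 and 0.979 by the quasi-likelihood test of edgeR, adjusted over all genes after Benjamini and Hochberg. Exons 4 to 6 hold 735 bases, 16.5% of the counted length of *Tox4*, and a gene that lost nothing but those exons would show a log2 fold change of -0.26. A count over the whole gene is therefore a weak check of the deletion, and in CD8 cells it did not separate the genotypes.

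*Cd4* showed how far CD8 samples were free of cells with *Cd4* mRNA. Its level in TPM, a scale that corrects for gene length and depth, was 1835, 1454 and 1737 in DP control samples and 1797, 1571 and 1661 in DP cKO samples. In CD8 control samples 1 to 5 it was 62.1, 70.9, 6.31, 3.64 and 10.7 TPM, from 560, 712, 59, 39 and 140 fragments. In CD8 cKO samples 1 to 5 it was 69.7, 81.6, 6.78, 5.79 and 8.33 TPM, from 784, 899, 56, 50 and 62 fragments. Samples 1 and 2 of both genotypes stood apart, and the lowest of these 4 had 5.88 times the normalized *Cd4* count of the highest of the other 6. Relative to the mean of DP control samples, *Cd4* TPM was at 3.71%, 4.23%, 0.377%, 0.217% and 0.636% in CD8 control samples and at 4.16%, 4.87%, 0.405%, 0.345% and 0.497% in CD8 cKO samples. With exact Poisson 95% intervals, the lowest share, in control sample 4, was between 0.154% and 0.297% and the highest, in cKO sample 2, between 4.56% and 5.20%. These intervals cover counting error only. In bulk RNA, a few cells with much *Cd4* mRNA and many cells with little of it cannot be told apart, and so a share is not a fraction of cells. By sample number the genotypes were close to each other, and the exact permutation test of *Cd4* between them gave p = 0.667 (2-sided, n = 5 and 5).

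**Figure D1:**
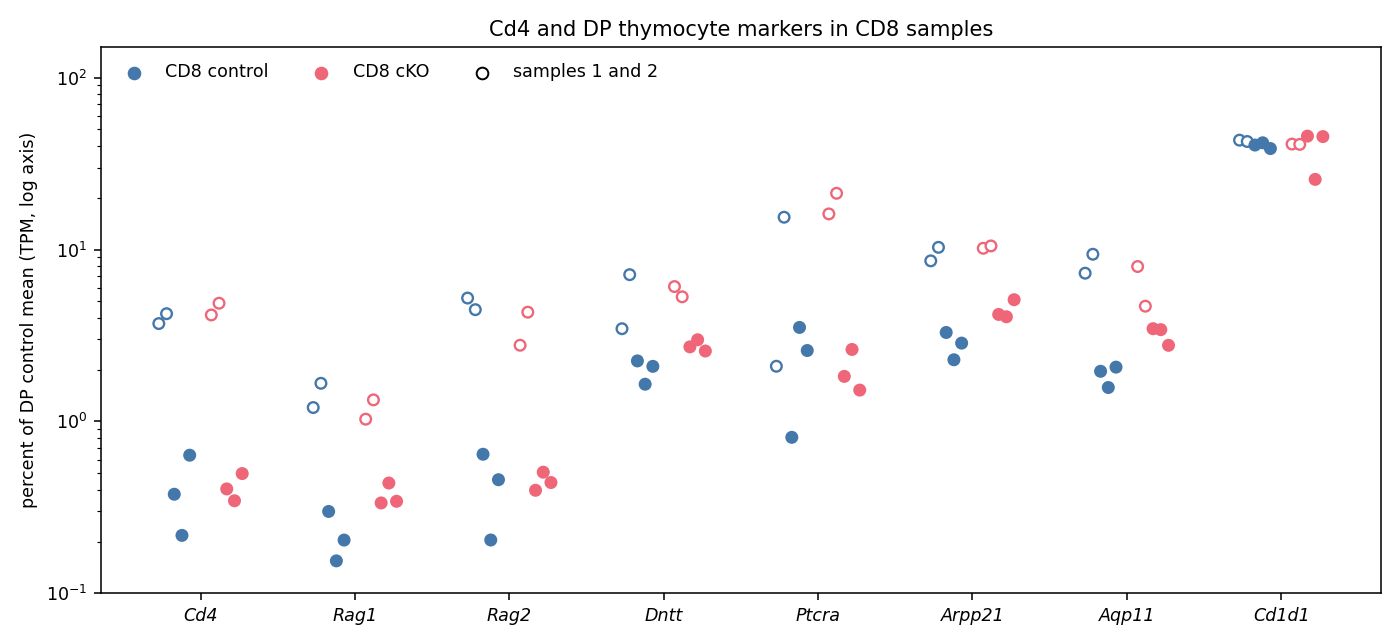
*Cd4* in each CD8 sample as a percentage of its mean TPM in DP control samples (log axis), shown beside the same percentage for DP thymocyte markers, with open circles for samples 1 and 2. For *Cd4*, samples 1 and 2 of both genotypes lie between 3.71% and 4.87% and the other 6 between 0.217% and 0.636%.

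Among marker genes of DP thymocytes, *Rag1*, *Rag2*, *Dntt*, *Arpp21* and *Aqp11* were higher in CD8 samples 1 and 2 of both genotypes than in all 6 other CD8 samples, whereas *Ptcra* and *Cd1d1* overlapped. *Rag1*, which cuts the receptor genes for rearrangement, was at 43.4, 60.1, 10.8, 5.57 and 7.36 TPM in CD8 control samples 1 to 5 and at 37.2, 48.1, 12.1, 15.8 and 12.4 TPM in cKO samples. Its level was 1.03% to 1.67% of the DP control mean in samples 1 and 2, and 0.154% to 0.438% in the others. *Rag2* was at 2.77% to 5.22% in samples 1 and 2 and at 0.204% to 0.644% in the others. In the same order *Dntt* was at 3.46% to 7.14% and 1.65% to 2.99%, *Arpp21* at 8.59% to 10.5% and 2.28% to 5.10% and *Aqp11* at 4.68% to 9.39% and 1.57% to 3.46%, so that in samples 1 and 2 the share of *Rag1* was below that of *Cd4* and the share of *Arpp21* above it. *Dntt* had a mean of 68.4 TPM in CD8 control and 81.1 TPM in CD8 cKO samples, and *Rag1* one of 3607 TPM in DP control samples. Over the 6 CD8 samples numbered 3 to 5, log2 CPM of *Cd4* and *Rag1* had a Pearson's r of 0.20 (permutation p = 0.757). Spearman's rho was 0.0286 (permutation p = 1). Without the 2 of these 6 samples farthest from the median, r was -0.91. That value rests on the few samples left, was not tested and shows only how unstable r is here. No r of this pair is given for all 10 samples, since they fall into separate clusters.

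The same 4 CD8 samples had less mRNA of some markers of mature single positive cells. *Klf2*, *S1pr1* and *Ccr7*, which direct the exit from the thymus, were lower in all 4 samples numbered 1 or 2 than in the other 6, and *Il7r* overlapped. *Klf2* was at 429.5 to 585 TPM in the 4 samples and at 898 to 1599 TPM in the other 6. Of the markers of CD4 single positive cells, *Cd40lg* was higher in the 4 samples (15.9 to 25.9 TPM against 2.0 to 8.72 TPM), and *Ctla4* was lower. *Zbtb7b*, the factor that fixes the CD4 fate, overlapped, at 1.67 to 3.15 TPM and 0.936 to 2.40 TPM. The sum of 6 such markers was 228, 187, 271, 286 and 256 TPM in CD8 control samples and 198, 209, 288, 168 and 274 TPM in cKO samples, with *Icos* the most abundant. Of 6 markers of CD8 single positive cells, *Itgae* and *Eomes* were lower in the 4 samples. The rest overlapped, among them *Runx3*, at 461 to 493 TPM in the 4 samples and 430 to 511 TPM in the other 6. These marker levels are descriptions, since the 4 samples were set apart by a value measured in them. No test of the 4 against the other 6 was made over all genes. The erythroid genes *Hba-a1* and *Hbb-bs* were at 0 in all 16 samples. The part that these differences between samples play in the results on CD8 cells was not tested beyond leaving the samples out in the fits of the 7 genes.

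Sample number also went with sex, and CD8 control sample 1 stood apart in another way. *Xist*, which is transcribed in female cells, was between 3382 and 5142 CPM in CD8 samples 1, 2 and 5 of both genotypes. It was at most 0.626 CPM in all 6 DP samples and at most 0.342 CPM in CD8 samples 3 and 4, except for 29.5 CPM in CD8 cKO sample 4. In CD8 control sample 1, 17741 genes had at least 1 count, against 13708 to 15054 genes in the other 9 CD8 samples. The labels themselves held up for the cell types. The DP markers *Rag1*, *Rag2*, *Dntt*, *Ptcra*, *Cd1d1*, *Arpp21* and *Aqp11* fell in control CD8 against control DP samples, and all 6 CD8 single positive markers rose, *Runx3* and *Itgae* among them.

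In DP control samples, *Cd8b1* was the most abundant of the 7 genes on the TPM scale, at 2961 ± 243 TPM (SD, n = 3), and ranked 14 among all genes by mean TPM. *Cd8a* and *Cd3e* followed at 1976 ± 317 and 1955 ± 19.9 TPM and overlapped. Then came *Cd4* at 1675 ± 197, *Cd3g* at 1235 ± 101, *Cd3d* at 653 ± 63.1 and *Cd247* at 398 ± 31.6 TPM, and none of these neighbours in the order overlapped. In DP cKO samples the order was *Cd8b1*, *Cd3e*, *Cd4*, *Cd8a*, *Cd3g*, *Cd3d* and *Cd247*, and *Cd3e*, *Cd4* and *Cd8a* overlapped from one to the next. *Cd8a* thus came before *Cd4* in TPM in control and after it in cKO cells, at 1411 ± 251 TPM (SD, n = 3), although its ranks next to *Cd3e* and *Cd4* were within the spread. In CD8 control samples *Cd3e* led at 3353 ± 949 TPM (SD, n = 5). *Cd8b1* and *Cd8a*, at 1787 ± 90.8 and 1578 ± 94.9 TPM, overlapped, and below them were *Cd3g* at 1213 ± 132, *Cd3d* at 293 ± 19.8, *Cd247* at 222 ± 7.54 and *Cd4* at 30.7 TPM. The order was the same in CD8 cKO samples. In every group the 4 CD3 genes were unequal in TPM, with *Cd3e* the highest and *Cd247* the lowest of them.

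**Figure D2:**
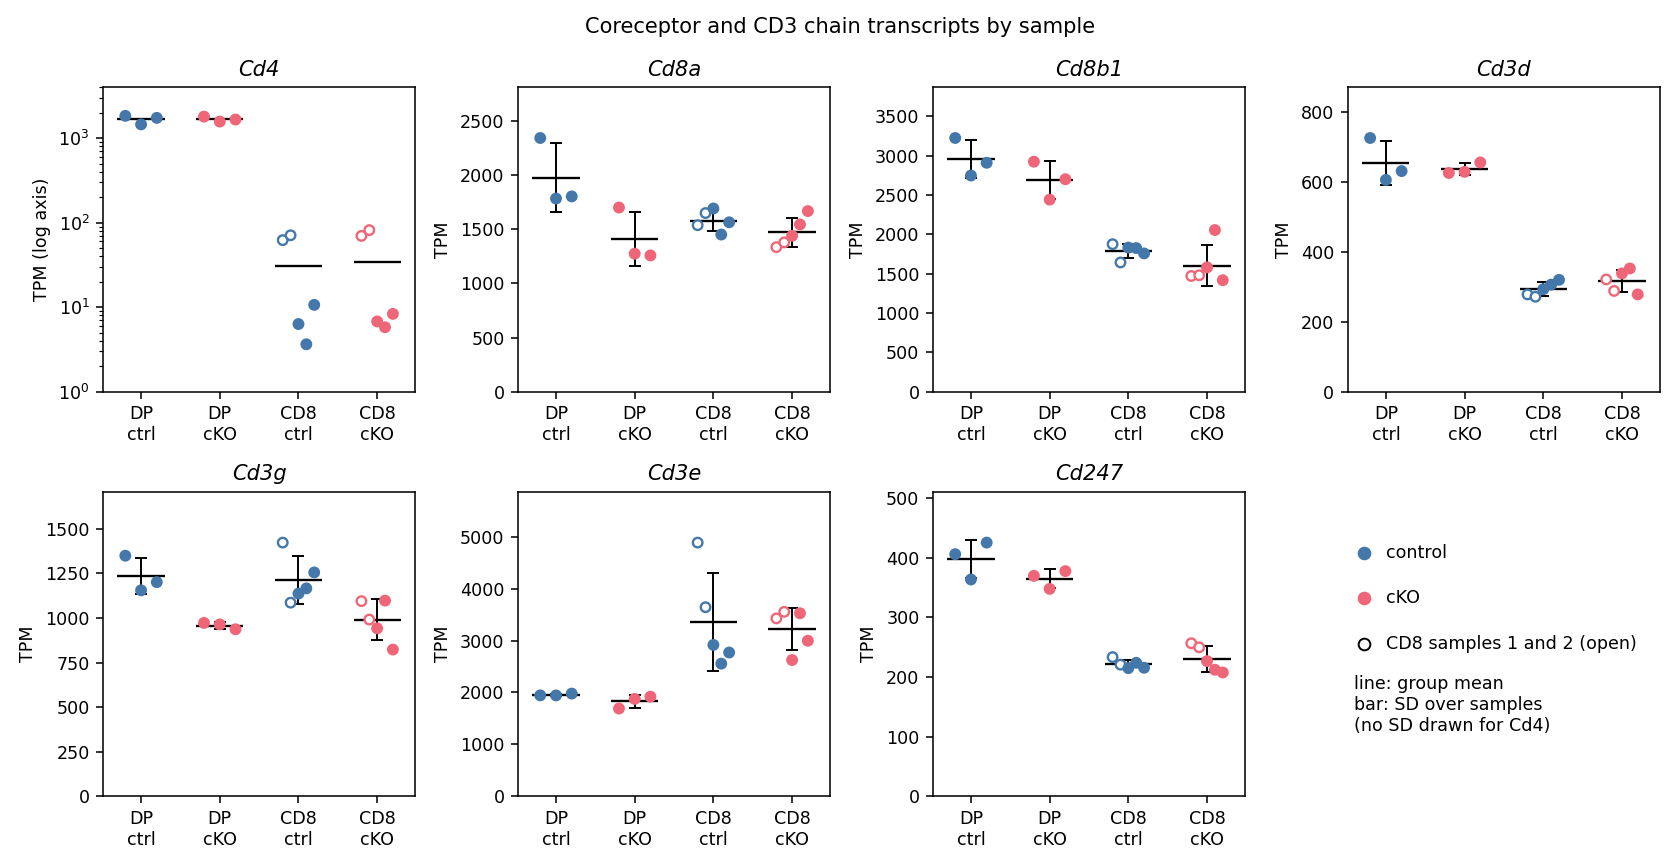
TPM of the 7 genes in each of the 16 samples, by group (DP control and cKO, n = 3 each, and CD8 control and cKO, n = 5 each). Points are samples, with open circles for CD8 samples 1 and 2, lines are group means and bars the SD, and *Cd4* is on a log axis without SD because its CD8 samples fall into separate clusters. *Cd8a* and *Cd3g* of DP cKO samples lie below all DP control samples, and *Cd3e* is higher in all CD8 than in all DP samples.

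Between control DP and control CD8 cells, which asks how the receptor mRNAs differ between the stages, *Cd4*, *Cd8b1*, *Cd3d* and *Cd247* fell and *Cd3e* rose. To count as changed, a gene needed an edgeR adjusted p under 0.05, a fold of 1.5 or more and a mean of 1 TPM or more. By this measure 5 of the 7 genes changed, 4 of them lower in CD8 cells, at a background of 44.3% of the 11758 genes tested (22.3% lower and 22% higher). In 6 of the 7 the groups did not overlap in CPM, with 5 lower and 1 higher, against 56.9% of all genes tested (29.9% lower and 27% higher). A change of stage was thus common among all genes, and the directions and sizes are what sets the genes apart from one another. The median log2 fold change of the 7 genes was -0.80, against -0.01 over all genes tested.

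*Cd4* fell by 5.86 on the log2 scale (standard error 0.79, adjusted p = 5.82e-05 from edgeR's test), and 99.6% of the genes tested had a smaller difference. The DP control mean was 22.5 times the highest and 476 times the lowest normalized *Cd4* count of a CD8 sample. Without CD8 control samples 1 and 2, a setting added once the values were known, *Cd4* fell by 7.96. Those samples had been set apart by *Cd4* itself, so the larger fall follows from the choice and is no test. With only CD8 control samples 3 and 4, which like the DP samples were low in *Xist*, *Cd4* fell by 8.46. They also had the lowest *Cd4* of their group, so this value is no test either.

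The chains of CD8 did not keep the same proportion. *Cd8b1* was at 3225, 2748 and 2909.7 TPM in DP control samples and 1875, 1643, 1832, 1826 and 1758 TPM in CD8 control samples, and every CD8 sample was lower. It fell by 0.80 on the log2 scale (standard error 0.10, edgeR adjusted p = 3.06e-05). *Cd8a*, at 2342, 1783 and 1803 TPM in DP control and 1537, 1649, 1691, 1451 and 1564 TPM in CD8 control samples, was also lower in all CD8 samples. Its log2 fold change of -0.39 (standard error 0.10) had an edgeR adjusted p of 0.00668, but its fold of 1.31 was under 1.5. The ratio of *Cd8b1* to *Cd8a* on the TPM scale was 1.38, 1.54 and 1.61 in DP control samples and 1.22, 0.996, 1.08, 1.26 and 1.12 in CD8 control samples, and did not overlap. Without CD8 control samples 1 and 2 the log2 fold changes were -0.77 for *Cd8b1* and -0.39 for *Cd8a*.

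The CD3 genes differed in direction. *Cd3e*, the ε chain that pairs with both γ and δ, was at 1944, 1942 and 1978 TPM in DP control samples and at 4885, 3641, 2915, 2554 and 2769 TPM in CD8 control samples 1 to 5. All CD8 samples were above all DP samples, and samples 1 and 2 were the highest. It rose by 0.70 on the log2 scale (standard error 0.20, edgeR adjusted p = 0.00851). Without CD8 control samples 1 and 2 the log2 fold change was 0.43 (edgeR adjusted p = 0.00125), below a fold of 1.5, and without CD8 control sample 1 alone it was 0.53 (edgeR adjusted p = 0.00234), so that its count as changed rested on that sample. *Cd3d*, the δ chain, was at 724, 605 and 630.0 TPM in DP control and 278, 271, 293, 306 and 319 TPM in CD8 control samples, with no overlap, and fell by 1.22 on the log2 scale (standard error 0.09, edgeR adjusted p = 6.21e-07). *Cd3g*, the γ chain whose gene starts next to *Cd3d*, was at 1349, 1155 and 1201 TPM in DP control and 1422, 1086, 1137, 1166 and 1255 TPM in CD8 control samples. These overlapped, and its log2 fold change of -0.09 (standard error 0.11) had an edgeR adjusted p of 0.496. *Cd247*, the ζ chain, was at 406, 364 and 425 TPM in DP control and 233, 221, 215, 224 and 216 TPM in CD8 control samples, all lower, and fell by 0.92 on the log2 scale (standard error 0.09, edgeR adjusted p = 5.73e-06). Without CD8 control samples 1 and 2 the log2 fold changes were -1.15 for *Cd3d*, -0.11 for *Cd3g* and -0.93 for *Cd247*. On the TPM scale the ratio of *Cd3e* to *Cd3d* was 2.68, 3.21 and 3.14 in DP control samples and 17.6, 13.4, 9.96, 8.36 and 8.67 in CD8 control samples 1 to 5.

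**Figure D3:**
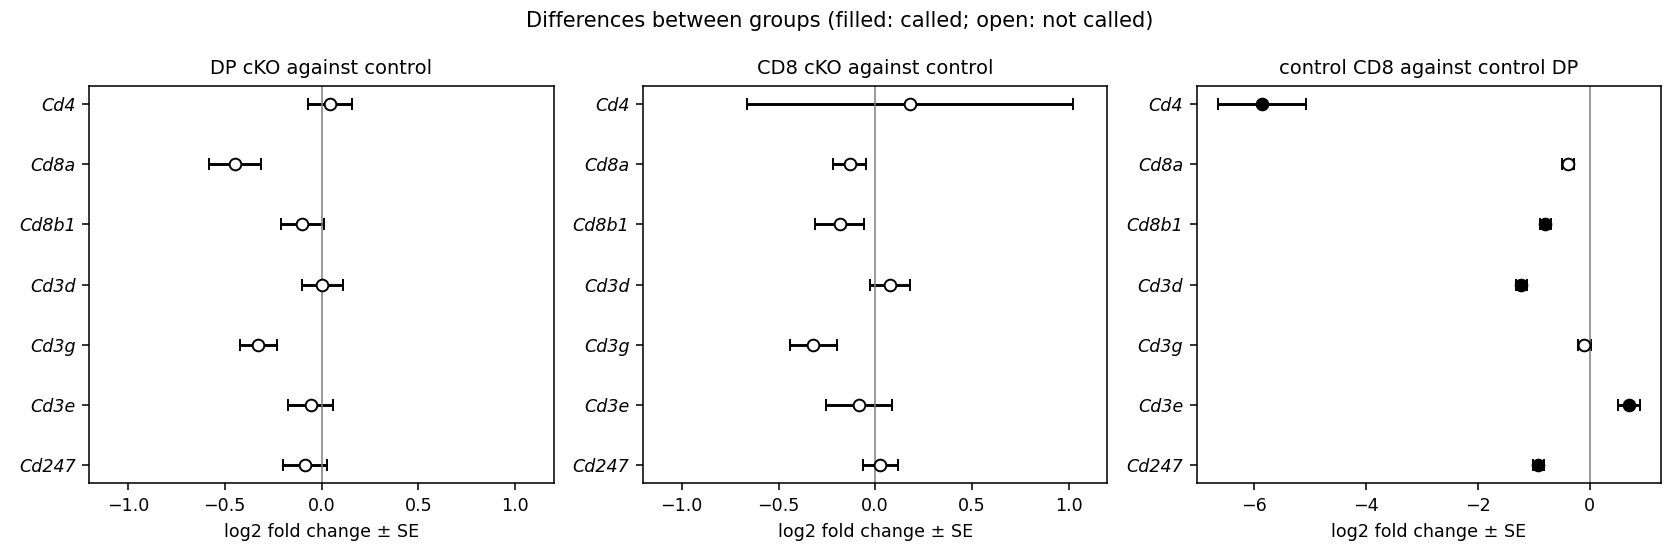
Log2 fold changes of the 7 genes from edgeR, with standard errors as bars, for cKO against control in DP (n = 3 and 3) and in CD8 cells (n = 5 and 5) and for control CD8 against control DP samples (n = 5 and 3). The values of both genotype comparisons lie between -0.45 and 0.18, while the comparison of stages runs from -5.86 for *Cd4* to 0.70 for *Cd3e*.

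In DP cells, loss of Tox4 left 0 of the 7 genes changed by edgeR's test, at a background of 0.145% (17 of 11748 genes). DESeq2 called 159 genes, also with 0 of the 7, and the unadjusted edgeR p was under 0.05 for 1079 genes, *Cd8a* and *Cd3g* among them. With each sample left out in turn, edgeR called 0 to 8 genes and again 0 of the 7. *Cd8a* was at 2342, 1783 and 1803 TPM in control samples 1 to 3 and 1699.9, 1274 and 1258 TPM in cKO samples 1 to 3. Every cKO sample was below every control sample, with cKO sample 1 the closest. The log2 fold change of -0.45 (standard error 0.14) had an edgeR adjusted p of 0.328. With the replicate number as a block, which compares same-numbered samples, it stayed at -0.45 (standard error 0.08, edgeR adjusted p = 0.0336). *Cd8a* then passed the adjusted p, but its fold stayed too small to count as changed. The labels do not say that the numbers mark pairs, and deviations of same-numbered DP samples correlated as weakly as 0.094. Whether *Cd8a* passed the adjusted p thus depended on the setting. *Cd3g* was at 1349, 1155 and 1201 TPM in control and 972, 964 and 936 TPM in cKO samples, and these groups did not overlap either. Its log2 fold change of -0.33 (standard error 0.10) had an edgeR adjusted p of 0.311. The exact permutation test gave p = 0.1 for both (2-sided, n = 3 and 3), the smallest that 3 samples against 3 allow. Groups that did not overlap in CPM, with cKO lower, were found for 2 of the 7 genes and for 7.22% of all genes tested, and in either direction for 14.7%.

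The other 5 genes overlapped between the genotypes in CPM in DP cells. *Cd8b1*, next to *Cd8a* on the chromosome, was at 3225, 2748 and 2909.7 TPM in control and 2924, 2442 and 2701 TPM in cKO samples, with -0.10 as log2 fold change (standard error 0.11). The log2 fold changes of *Cd4*, *Cd3d*, *Cd3e* and *Cd247* were 0.04, 0.0044, -0.06 and -0.09, each with a standard error of at most 0.12. *Cd3e*, at 1689.8, 1875 and 1919 TPM in cKO samples, was below all control samples in TPM but overlapped with them at 910.0, 981 and 1002 CPM in control and 819, 926 and 1041 CPM in cKO samples. The sign of the log2 fold changes of *Cd4*, *Cd3d* and *Cd3e* changed when single samples were left out, and that of *Cd3d* also under other normalizations. Some markers of other cell types and stages were lower in the same DP cKO samples, without passing the test. Of markers of mature single positive cells, *S1pr1* and *Ccr7* were lower in all cKO than in all control samples, *Il7r* was so in CPM only, and *Klf2* overlapped. Of 6 markers of CD4 single positive cells, *Zbtb7b* and *Icos* were lower in this way, and the sum was 73.5, 72.0 and 56.6 TPM in control and 46.1, 44.0 and 45.7 TPM in cKO samples. Of 4 markers of CD8 single positive cells tested, *Itgae* was lower. Of 3 markers of double negative cells, *Il2ra* and *Kit* were lower, with log2 fold changes of -0.71 and -0.97, and of 4 B cell genes tested 1 was lower, *Pax5*, with -1.69 at a mean of 0.289 TPM, while the most abundant, *Cd79b*, overlapped with -0.14. Of DP markers, *Dntt* was higher in CPM but overlapped in TPM, and *Rag1*, *Rag2*, *Ptcra*, *Cd1d1*, *Arpp21* and *Aqp11* overlapped. Among 7 myeloid and dendritic markers, *Lyz2*, *Csf1r* and *H2-Aa* were lower and *Cd68* higher, with sums of 84.2, 162 and 77.4 and 61.0, 62.6 and 71.3 TPM. The part of these cells in the values of *Cd8a* and *Cd3g* was not tested.

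In CD8 cells, loss of Tox4 again left 0 of the 7 genes changed by edgeR's test, at a background of 0.098% (11 of 11227 genes). DESeq2 called 53 genes and 0 of the 7, and the unadjusted edgeR p was under 0.05 for 629 genes, *Cd3g* being the only one of the 7. With each sample left out in turn, edgeR called 4 to 20 genes and 0 of the 7. In 0 of the 7 genes did the groups stay apart, against 1.51% of all genes tested. *Cd3g* was at 1422, 1086, 1137, 1166 and 1255 TPM in control samples 1 to 5 and 1094, 991, 942, 1097 and 823 TPM in cKO samples 1 to 5. Control sample 2, the lowest of its group, was below cKO samples 1 and 4. The log2 fold change of -0.32 (standard error 0.12) had an edgeR adjusted p of 0.753, and the exact permutation test gave p = 0.0397 (2-sided, n = 5 and 5), which was not adjusted for the 7 genes looked at. Without samples 1 and 2 of both genotypes the log2 fold change was -0.35 (standard error 0.14, edgeR adjusted p = 0.437).

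*Cd8a* and *Cd8b1* did not pass the test between the genotypes of CD8 cells. *Cd8a* was at 1537, 1649, 1691, 1451 and 1564 TPM in control and 1334, 1378, 1439, 1544 and 1667 TPM in cKO samples, with -0.13 as log2 fold change (standard error 0.09). *Cd8b1* was at 1875, 1643, 1832, 1826 and 1758 TPM in control and 1471, 1480.0, 1580.2, 2055 and 1417 TPM in cKO samples, with -0.18 as log2 fold change (standard error 0.13). Both overlapped. For *Cd8b1*, cKO sample 4 was the highest of all CD8 samples and the other 4 cKO samples were below all control samples, and without cKO sample 4 the log2 fold change was -0.32 (standard error 0.09, edgeR adjusted p = 0.291). *Cd3e* was at 3425, 3552, 2624, 3525 and 2995 TPM, *Cd3d* at 320.5, 288, 338, 352 and 278 TPM and *Cd247* at 257, 249.8, 227, 212 and 208 TPM in CD8 cKO samples 1 to 5. All 3 overlapped with the control samples, with cKO values of *Cd247* and *Cd3d* also outside the control range. Their log2 fold changes were -0.08, 0.08 and 0.03, with standard errors of 0.17, 0.11 and 0.09. For *Cd4* it was 0.18 with a standard error of 0.84, and -0.05 with a standard error of 0.34 without samples 1 and 2. Without those samples the log2 fold changes were -0.07 for *Cd8a*, -0.13 for *Cd8b1*, 0.03 for *Cd3d*, 0.11 for *Cd3e* and -0.07 for *Cd247*.

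An edgeR fit over all 4 groups compared the effect of Tox4 loss in CD8 cells with that in DP cells. None of the 7 genes passed an adjusted p of 0.05, at a background of 0.107% (13 of 12131 genes), and DESeq2, which called 37 genes, called none of the 7. The unadjusted edgeR p was under 0.05 for 639 genes and for 0 of the 7. The smallest p was that of *Cd8a*, whose effect in CD8 cells was higher by 0.31 on the log2 scale (standard error 0.16, edgeR adjusted p = 0.95). For *Cd3g* the difference of the effects was 0.00368 with a standard error of 0.18.

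The proportion of *Cd3g* to *Cd3d*, the neighbours with opposite strands, was lower in cKO samples of both cell types. On the TPM scale it was 1.86, 1.91 and 1.91 in DP control samples and 1.56, 1.54 and 1.43 in DP cKO samples. It was 5.12, 4.0, 3.88, 3.81 and 3.93 in CD8 control samples 1 to 5 and 3.41, 3.44, 2.79, 3.12 and 2.96 in CD8 cKO samples 1 to 5. Neither pair of groups overlapped, and CD8 control sample 1 was the highest. Among all 21 pairs of the 7 genes, 9 TPM ratios did not overlap between the genotypes in DP cells and 1 in CD8 cells, and this ratio was the only one in both. It was noticed among the 21 and has no test of its own. As background, the TPM ratio to *Cd3d* did not overlap between the genotypes for 13% of the other genes tested in DP cells and for 1.01% in CD8 cells. The ratio of *Cd8b1* to *Cd8a* was 1.38, 1.54 and 1.61 in DP control and 1.72, 1.92 and 2.15 in DP cKO samples, which did not overlap. In CD8 cells it was 1.22, 0.996, 1.08, 1.26 and 1.12 in control and 1.10, 1.07, 1.10, 1.33 and 0.850 in cKO samples, which overlapped. Ratios to *Cd8a* did not overlap for 44.2% of the other genes tested in DP cells and 4.19% in CD8 cells, so such a shift was frequent in DP cells.

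**Figure D4:**
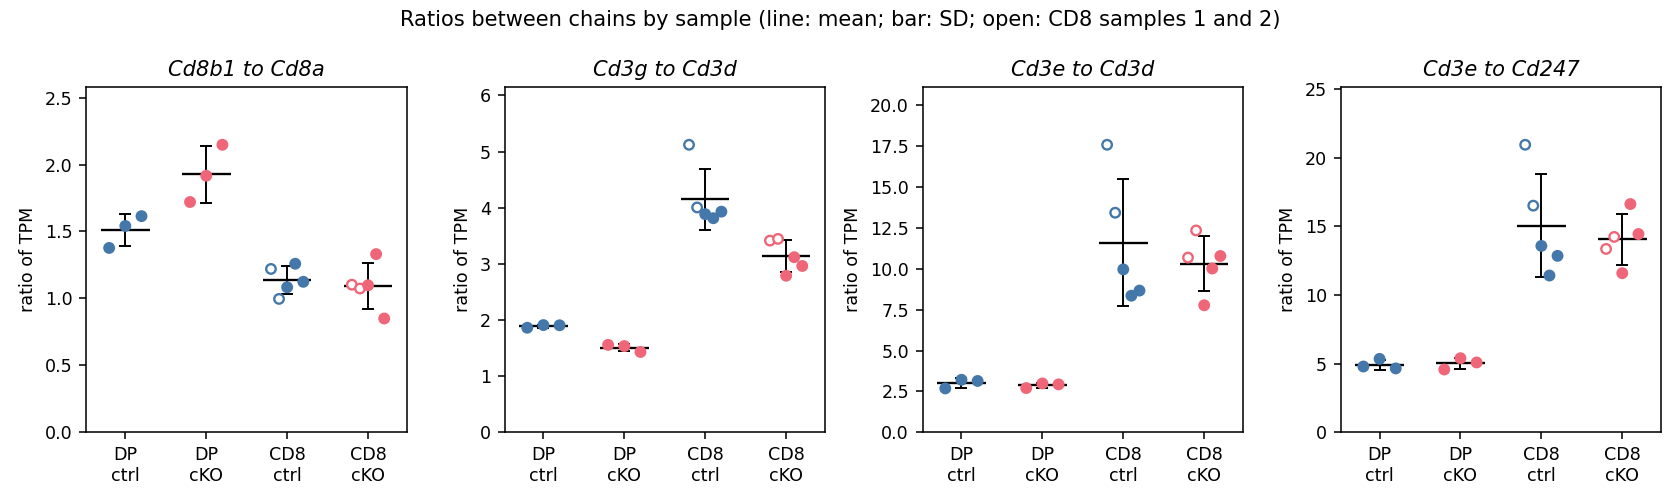
TPM ratios of *Cd8b1* to *Cd8a*, *Cd3g* to *Cd3d*, *Cd3e* to *Cd3d* and *Cd3e* to *Cd247*, in each sample by group. Open circles are CD8 samples 1 and 2, lines are means and bars the SD. The ratio of *Cd3g* to *Cd3d* is 1.86 to 1.91 in DP control and 1.43 to 1.56 in DP cKO samples, and 3.81 to 5.12 in CD8 control and 2.79 to 3.44 in CD8 cKO samples.

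The kinases, adaptors and phosphatases that act on these chains were taken as a list of 25 genes, all of them tested. With loss of Tox4, 0 of 25 changed in DP cells and 0 of 25 in CD8 cells by edgeR's test, and medians of log2 fold changes were 0.00690 and 0.04. In DP cells the smallest p values were those of *Cd5*, a brake on receptor signaling that follows its strength, with a log2 fold change of -0.36 (edgeR adjusted p = 0.346), and of the adaptor *Nck2*, with 0.30 (edgeR adjusted p = 0.408). *Lck*, whose promoter fragment drives the Cre, was the most abundant and had 0.10. In CD8 cells the adaptor *Sla2* had 0.13, *Themis* 0.15 and the abundant phosphatase *Ptprc* 0.05, all with edgeR adjusted p of at least 0.968. Between control DP and control CD8 cells, 8 of the 25 fell, 9 rose and 8 did not pass, where 22.3% of all genes tested fell and 22% rose, with a median of 0.18 against -0.01 over all genes. *Lck* fell from a mean of 2074 to 730.3 CPM, a log2 fold change of -1.48 (edgeR adjusted p = 2.24e-07), while *Fyn*, the related kinase, rose from 186 to 539 CPM, with 1.56 (edgeR adjusted p = 1.85e-07). The ubiquitin ligase *Cblb* and the phosphatase *Ubash3b*, which both dampen the receptor's signal, rose by 2.48 and 3.89 (edgeR adjusted p = 8.67e-08 and 5.61e-08). Of 8 genes of receptor chains themselves, *Ptcra*, the α chain of the pre-receptor, was in the tables, and the other 7 were not analysed here. It had a log2 fold change of 0.32 in DP cKO cells (edgeR adjusted p = 0.696), fell by 4.43 from control DP to control CD8 cells (edgeR adjusted p = 1.56e-05) and was too low for the test in CD8 cells.

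Factors known to act on *Cd4* or *Cd8* transcription were a list of 28 genes, all tested. In DP cKO cells 0 of 28 changed (median 0.02). *Zbtb7b*, which opposes Runx at *Cd4* and the *Cd8* genes, had a log2 fold change of -1.08 (edgeR adjusted p = 0.122) and *Il7r*, the receptor for a cytokine that favors the CD8 fate, -0.995 (edgeR adjusted p = 0.328). The most abundant factor, *Tcf7*, was at 6243 CPM in control and 6281 CPM in cKO cells. In CD8 cKO cells 0 of 28 changed (median 0.02), and the smallest p values were those of *Ets1*, with 0.24 (edgeR adjusted p = 0.7), and *Cbfb*, the partner of the Runx factors, with 0.24 (edgeR adjusted p = 0.925). From control DP to control CD8 cells 8 of the 28 fell, 7 rose and 13 did not pass, beside 22.3% lower and 22% higher over all genes tested (median -0.28 against -0.01 over all genes). *Runx3*, which silences *Cd4* in CD8 cells, rose from 36.4 to 609 CPM (log2 fold change 4.09, edgeR adjusted p = 8.44e-09). *Il7r* rose by 4.24, and *Tet2* and *Tet3*, which oxidize methylated cytosine, by 2.13 and 1.43. *Tcf7* fell by 0.82 (edgeR adjusted p = 0.00459).

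Genes within 100000 bases of a member were looked at because genes of 1 locus can share their control. There were 29, of which 25 were tested in DP cells, 21 in CD8 cells and 24 between the stages. Between control DP and control CD8 cells 12 of the 24 fell, 5 rose and 7 did not pass, and the median was -1.01. Over all genes tested 22.3% fell and 22% rose, with a median of -0.01. Around *Cd4*, *Gpr162*, whose start is 709 bases past the end of *Cd4* on the same strand, fell by 6.03 (edgeR adjusted p = 1.44e-07), close to the value of *Cd4*. It had 49, 36, 20, 7 and 16 fragments in CD8 control samples 1 to 5 and 97, 54, 22, 14 and 17 in cKO samples, so that samples 1 and 2 were the highest here too. *P3h3*, which follows at 6975 bases from *Cd4*, fell by 5.25, and *Lag3*, a relative of *Cd4* and its nearest upstream gene on the strand at 16158 bases, fell by 2.26. *Ptms*, *Cdca3*, *Mlf2* and *Tpi1* also fell, with log2 fold changes of -2.86, -2.05, -0.90 and -0.70, whereas *Cops7a* and *Eno2* rose by 0.71 and 1.80. Near the *Cd8* genes *Rmnd5a* and *Smyd1* fell, with log2 fold changes of -2.28 and -3.05, and *Krcc1*, the nearest tested gene upstream of *Cd8b1*, did not pass with -0.30. Around the CD3 cluster *Atp5l* and *Mpzl3* fell, with log2 fold changes of -1.52 and -1.12, and *Kmt2a* and *Jaml* rose by 1.42 and 4.31, so both directions were found there as among the CD3 genes. Near *Cd247*, *Rcsd1* fell by 1.62, *Pou2f1* rose by 0.80 and *Creg1*, the nearest upstream gene on the strand, did not pass with 0.35.

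With loss of Tox4, 0 of 25 neighbours changed in DP cells and 0 of 21 in CD8 cells by edgeR's test. The smallest p in DP cells was that of *P3h3*, at 13.3, 21.4 and 25.5 TPM in control samples and 45.0, 58.6 and 47.9 TPM in cKO samples. All cKO samples were higher, with a log2 fold change of 1.35 and an edgeR adjusted p of 0.111. *Gpr162*, which lies between *Cd4* and *P3h3*, was at 161, 162 and 182 TPM in control and 183, 144 and 155 TPM in cKO samples and overlapped. Next came *Krcc1*, upstream of *Cd8b1*, with -0.68 (edgeR adjusted p = 0.36), which also had the smallest p in CD8 cells, with -0.26 (edgeR adjusted p = 0.864). *Ptms* followed in CD8 cells with 0.46 (edgeR adjusted p = 0.959). The most abundant neighbours, *Rcsd1* in DP and *Kmt2a* in CD8 cells, had log2 fold changes of 0.24 and -0.08.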

How the data were processed

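RNA was sequenced from 16 sorted thymocyte samples (DP control and cKO, n = 3 each, and CD8 control and cKO, n = 5 each), grouped by genotype and cell type as labelled. According to the submitters' processing notes, reads were processed with fastp (version 0.13.1), HISAT2 (version 2.1.0) and featureCounts (version 1.6.1) on mm10. The authors deposited raw fragment counts per gene, counted by strand and not normalized. The columns of CD8 samples are named Ctrl and Tox4_KO and were matched to the labels by genotype and number. CPM, TPM, ratios and tests were computed here from these counts, with positions and gene lengths of the DP table. Libraries carry no molecular identifiers, so fragments are not counts of molecules. Each comparison was fitted on its own samples with edgeR's quasi-likelihood F test (version 4.0.16, R 4.3.3), TMM normalization, filterByExpr and Benjamini-Hochberg adjustment over all genes tested, after tests on simulated data. Permutation tests between groups, 2-sided and exact, were computed with numpy (version 2.4.6), and Poisson intervals with scipy (version 1.17.1). Tables were made in pandas (version 2.3.3) and plots in matplotlib (version 3.10.9). Alternatives were RLE and upper-quartile normalization, DESeq2 (version 1.42.0), no filter or at least 10 counts in every sample, a replicate block, all groups in 1 fit and each sample left out, and, chosen after seeing the data, CD8 samples 1 and 2 left out and CD8 control samples 3 and 4 alone. The 7 genes and all lists were chosen with earlier results of these data known. Some marker genes are not reported here. *Xist* and cell type markers were named for the samples or groups that they do or do not separate. The other named genes are the 7 genes and *Tox4*, up to 4 changed genes of each list by smallest p (otherwise 2), its most abundant gene, all changed neighbours, and the 5 genes most correlated with *Cd4*, *Cd8a* and *Cd3e*. Whether replicates came from separate mice is not given per sample, so p-values measure the spread between these samples.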

Additional observations from a re-analysis of the deposited data

Results flagged for a closer look

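Within groups of 5 samples, single values far from the other 4 were found in 3 of 62 sets, where chance gives about 1 in 20. CD8 control sample 1 had 17741 genes with a count, and the next highest of its group had 14194. In the same sample the TPM ratio of *Cd3g* to *Cd3d* was 5.12, and the next highest was 4.0. The TPM ratio of *Cd3g* to *Cd247* was 5.17 in CD8 cKO sample 4, and the next highest of its group was 4.26. The effect of Tox4 loss differed between DP and CD8 cells for 13 genes by the interaction in edgeR, and none of them was a coreceptor or CD3 gene.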

How the results depend on the processing

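Over all settings other than leaving out single samples, fold changes of the 7 genes kept their direction and their side of the adjusted p in 203 cases, turned in sign in 12, newly passed in 1 and no longer passed in 1. With single samples left out, 249 were kept and 31 turned. No log2 fold change whose sign turned had passed the test. *Cd3d* in DP cells turned to -0.0041 with RLE normalization and -0.0040 with DESeq2. Without CD8 samples 1 and 2, the effects in CD8 cells turned to -0.055 for *Cd4*, 0.11 for *Cd3e* and -0.066 for *Cd247*, and the interaction to -0.11 for *Cd4*, 0.16 for *Cd3e* and -0.036 for *Cd3g*. The interaction of *Cd3g* also turned to -0.017 with upper-quartile normalization and to -0.00067 with at least 10 counts in every sample. Replicate numbers occur in both genotypes but do not pair the samples by the rule used, since correlations of the deviations of same-numbered samples were as low as 0.094 in DP and 0.095 in CD8 cells. Their means were 0.37 and 0.29, against -0.18 and -0.08 for samples with different numbers, and not every sample correlated best with its own number. With the replicate number as a block, *Cd8a* in DP cells stayed at -0.45 with an edgeR adjusted p of 0.0336, *Cd8a* between the stages was -0.36 with 0.0667, and the interactions of *Cd3e* and *Cd3g* turned to 0.0016 and -0.0034. Over all settings the edgeR or DESeq2 adjusted p of *Cd8a* ranged from 0.0336 to 0.722 in DP cells and from 0.000174 to 0.0667 between the stages. The causes were not tested.

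The number of genes called in DP cells (17) became 159 with DESeq2, 74 with no filter on low counts, 131 with the block, 41 with all 4 groups in 1 fit and 0 to 8 with single samples left out. In CD8 cells (11) it became 53 with DESeq2, 31 with the block, 5 without samples 1 and 2 and 4 to 20 with single samples left out. For the interaction (13) it became 3 with upper-quartile normalization, 37 with DESeq2, 33 with the block, 5 without samples 1 and 2 and 0 to 11 with single samples left out. Between the stages (5213) it became 7093 by the adjusted p alone and lay between 4658 and 5347 in all other settings. With single samples left out, the effects in DP cells ranged from -0.031 to 0.090 for *Cd4*, -0.052 to 0.048 for *Cd3d* and -0.13 to 0.026 for *Cd3e*. In CD8 cells they ranged from -0.41 to 0.73 for *Cd4*, -0.16 to 0.11 for *Cd3e* and -0.023 to 0.092 for *Cd247*. The interaction ranged from -0.44 to 0.70 for *Cd4*, -0.00035 to 0.14 for *Cd3d*, -0.11 to 0.16 for *Cd3e* and -0.061 to 0.088 for *Cd3g*. Depth limits *Cd4* in CD8 samples 3 to 5, where 39 to 140 fragments were counted, and in no other member.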

Other observations

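Over the 10 CD8 samples, the genes whose log2 CPM was most correlated with that of *Cd4* were *Hivep3*, *Dgkz*, *Ccr4* and *Chdh* (r = 0.99) and *Tacc2* (r = 0.98) in samples that fall into the separate clusters of samples 1 and 2 and samples 3 to 5. *Ccr4* is a chemokine receptor that thymocytes gain after positive selection. Over all 16 samples, with the mean of each group subtracted, *Cd8a* was closest to *Tmem229b*, *Cpne1*, *BC147527*, *Leprotl1* and *Hipk1* (r from 0.94 to 0.91). *Cd3e* was closest to *Bak1*, *Polr2a*, *Gsk3a*, *Ttll5* and *Asna1* (r from 0.95 to 0.93), of which *Polr2a* encodes the largest subunit of RNA polymerase II. These values are descriptions over all genes tested, without a test. Among the 7 genes themselves, within groups, the highest correlations were those of *Cd8b1* with *Cd3d* (r = 0.78) and *Cd3g* (r = 0.72) and of *Cd3d* with *Cd3g* (r = 0.71).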
